A study of Mus musculus with 18 samples.

Results

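Open chromatin of haematopoietic stem cells (HSC) that lack Kmt2c was compared with that of wild-type HSC. Of the 18 ATAC-seq samples of the series, 4 enter the comparison: 2 labelled Kmt2c f/f; Vav-Cre HSC, with the genotype Kmt2c -/-, and 2 labelled wild-type HSC, all from mice 8 weeks old and with no treatment. They were chosen by genotype and cell type from the labels, not from measured values. The labels do not say whether the wild-type mice carried the Cre or the floxed allele, whether they were littermates, how many animals gave each sample, or which markers the sort used. Each group comes with a single list of peaks for its samples together, so nothing here measures the spread between mice, and no p-value can be given. The other 4 lists of the series served only to look regions up: HSC of 16-week wild-type mice after 3 injections of 5-fluorouracil at 150 mg/kg or of vehicle (PBS), each 3 weeks apart (4 samples each), and 8-week progenitors labelled HPC from the same Kmt2c f/f; Vav-Cre genotype (2 samples) and from wild-type mice (4 samples).

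Kmt2c, also called MLL3, is a histone methyltransferase that works in a large complex and places monomethyl marks on lysine 4 of histone H3, mostly at enhancers. HSC are the rare bone marrow cells that renew themselves and give rise to all blood lineages; the Vav promoter drives Cre recombinase across blood-forming cells from fetal life on, so the gene is lost in progenitors and mature blood cells as well. In ATAC-seq the Tn5 transposase cuts DNA where it is not packed in nucleosomes, and clusters of cuts are called as peaks, which mark promoters and enhancers that are open in at least some of the cells.

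The knockout HSC list held 48620 regions that covered 25.9 Mb, against 40073 regions and 21.2 Mb in the wild-type HSC list, after overlapping peaks of 1 list had been merged. Fold enrichment is the authors' peak caller's ratio of the signal at a peak's summit to the background around it. Its median was 15.1 in knockout HSC and 14.6 in wild-type HSC, and the regions had median widths of 484 bp and 483 bp. The lists looked up held 80100 regions in vehicle HSC, 71363 in 5-fluorouracil HSC, 65832 in wild-type HPC and 52840 in knockout HPC. Read depth per sample is unknown. A deeper library gives a longer list, so counts as deposited were set beside counts from the 40073 strongest regions of each list, ranked by the caller's −log10 p. Fold enrichments are given list by list as the caller's values, and lists were compared only by rank.

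Most stem cell identity genes had an open start in both lists. Of the 40 stem cell identity genes, 32 had a region within 1 kb of the start in knockout HSC and 30 in wild-type HSC. Over all 21883 protein-coding genes it was 55.7% in knockout and 52.2% in wild type. Housekeeping genes had one for 23 of 26 in knockout and 22 in wild type, and cell cycle genes for 35 and 34 of 35. The count for stem cell genes is therefore not particular to them. T and NK cell markers had a region at the start for 4 of 18 genes in knockout and 2 in wild type, B cell markers for 3 and 4 of 13, neutrophil markers for 3 and 2 of 13, macrophage markers for 5 and 3 of 14, and mast cell, basophil and eosinophil markers for 1 of 14 in both. Stroma and endothelium markers had one for 8 of 18 genes in knockout and 4 in wild type. The difference lay in weak regions at Acta2, Emcn, Kdr, Sp7 and Tie1 in knockout, with fold enrichment between 6.53 and 12.1, and at Col1a1 in wild type, with 8.49. All were below the median of their list by −log10 p. The part of other cells in the comparison was not tested beyond these counts.

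Gene starts with a region in 1 HSC list alone are shown first, with their sequence. A start was open in both lists for 11019 genes, in the knockout list alone for 1160 genes (5.3% of all) and in the wild-type list alone for 403 genes (1.84%). For 1136 and 383 of them the region at the start overlapped no region at all of the other list. Below are 4 promoters from among those with the highest fold enrichment, picked after their values were seen because each holds the ETS core letters GGAAGT or their reverse complement ACTTCC, printed in capitals. Each sequence runs 5′ to 3′ on the strand of the gene, from 250 bases before to 50 bases after the start (RefSeq, GRCm38.p6). The first pair was open in knockout HSC alone. Tceal8, of a transcription elongation factor family, lies at chrX:136172202-136172501 on the minus strand, and Mcoln3, an endosomal cation channel, at chr3:146121541-146121840 on the plus strand. The region called at the Tceal8 start, chrX:136171831-136172379, covers only part of its window, and both stretches in capitals lie outside that region.
Tceal8: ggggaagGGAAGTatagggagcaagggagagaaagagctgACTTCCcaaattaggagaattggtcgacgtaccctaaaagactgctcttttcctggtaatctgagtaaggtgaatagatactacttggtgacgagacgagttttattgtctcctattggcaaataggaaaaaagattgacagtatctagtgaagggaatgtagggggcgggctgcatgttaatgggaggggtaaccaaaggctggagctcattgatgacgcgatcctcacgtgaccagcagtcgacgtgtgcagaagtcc
Mcoln3: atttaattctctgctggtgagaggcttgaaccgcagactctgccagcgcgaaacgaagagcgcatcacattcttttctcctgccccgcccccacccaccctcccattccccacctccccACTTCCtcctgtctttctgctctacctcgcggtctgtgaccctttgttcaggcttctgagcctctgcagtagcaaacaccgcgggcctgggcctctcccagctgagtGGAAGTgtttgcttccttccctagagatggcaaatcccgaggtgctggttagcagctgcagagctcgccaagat

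The second pair was open in wild-type HSC alone. Surf2, which shares a head-to-head promoter with the cytochrome c oxidase assembly gene Surf1, lies at chr2:26916158-26916457 on the plus strand, and Phf11b, a PHD finger gene, at chr14:59341281-59341580 on the minus strand. The ETS letters occur 2 times in each promoter of the first pair and 1 time in each of these, which describes the letters and not a bound site. These counts come from the choice of promoters and do not stand for their classes. Of other knockout-only promoters of high fold enrichment, Mdn1 holds the letters 1 time and Spin2c, Zfp93 and Kcnj10 0 times. Of the wild-type-only ones, Surf1, Mosmo and Scg2 hold them 0 times.
Surf2: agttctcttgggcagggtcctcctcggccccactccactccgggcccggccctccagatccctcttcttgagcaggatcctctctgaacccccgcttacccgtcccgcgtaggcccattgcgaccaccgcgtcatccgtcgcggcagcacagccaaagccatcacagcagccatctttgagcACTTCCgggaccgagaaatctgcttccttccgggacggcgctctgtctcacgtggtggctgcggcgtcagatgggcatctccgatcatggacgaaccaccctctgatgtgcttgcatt
Phf11b: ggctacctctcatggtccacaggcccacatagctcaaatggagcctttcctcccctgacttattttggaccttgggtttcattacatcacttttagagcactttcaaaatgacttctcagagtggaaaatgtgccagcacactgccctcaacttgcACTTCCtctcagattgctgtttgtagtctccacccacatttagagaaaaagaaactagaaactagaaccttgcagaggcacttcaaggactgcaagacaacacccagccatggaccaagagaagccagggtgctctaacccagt

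The Tceal8 start had a fold enrichment of 23.5 in knockout HSC, no region in wild-type HSC, 21.7 in 5-fluorouracil HSC, 21.5 in vehicle HSC, 20.9 in knockout HPC and 18.6 in wild-type HPC. The Mcoln3 start had 21.8 in knockout HSC, none in wild-type HSC, 12.4 in 5-fluorouracil HSC, 14.5 in vehicle HSC, 14.6 in knockout HPC and 16.2 in wild-type HPC. Both were thus open in wild-type cells of the other groups. Surf1 and Surf2 shared 1 region, absent from knockout HSC, with 17.0 in wild-type HSC, 12.1 in 5-fluorouracil HSC, 12.8 in vehicle HSC, 17.4 in knockout HPC and 15.8 in wild-type HPC. Phf11b was absent from knockout HSC and had 16.8 in wild-type HSC, 13.2 in 5-fluorouracil HSC, 13.4 in vehicle HSC, 14.4 in knockout HPC and 21.9 in wild-type HPC. These starts too were open in knockout progenitors. Among the other knockout-only starts of high fold enrichment were those of Mdn1, a ribosome assembly factor (22.2), and of the potassium channel gene Kcnj10 (22.1). Gm2237 (23.7) and Spin2c (23.7) led that list, but Spin2c belongs to a family of close copies on chromosome X that can share reads.

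Such starts were looked up in the progenitor lists. Of the 1136 knockout-only starts, 59.9% (95% Wilson interval 57.1 to 62.8%) overlapped a region of knockout HPC and 79.8% (77.4 to 82.1%) one of wild-type HPC. Of the 383 wild-type-only starts, 59.5% (54.5 to 64.3%) overlapped a region of knockout HPC and 82.2% (78.1 to 85.7%) one of wild-type HPC. The 2 classes did not differ beyond these intervals, which cover counting error over regions only. In vehicle HSC 98.5% and 98.7% of them were found. A CpG ratio (observed over expected CpG) above 0.6 was found in 62.6% of 1024 knockout-only and 66.8% of 380 wild-type-only promoter windows, against 77.5% of 9379 windows open in both and 18.7% of 10479 open in neither. The share with the ETS letters GGAAGT, on either strand, was 23.0% in knockout-only, 23.4% in wild-type-only, 30.4% in windows open in both and 24.8% of all 21262 windows. RUNX letters (TGTGGT) were in 127 knockout-only and 38 wild-type-only windows, or 12.4% of the first, against 12.2% of windows open in both and 15.0% of all windows. GATA letters (AGATAA) were in 7.23% and 5.79%, AP-1 letters (TGANTCA) in 5.66% and 6.32% and C/EBP letters (TTGCNNAA) in 8.20% and 5.26% of knockout-only and wild-type-only windows. In windows open in both, the GATA, AP-1 and C/EBP letters were in 5.29%, 4.19% and 7.72%, and in all windows in 9.65%, 6.99% and 10.2%. E-box letters (CANNTG), which occur in 69.0% of all windows, were in 66.1% of knockout-only, 62.6% of wild-type-only and 61.4% of windows open in both.

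Several genes of the pathway lists used here had a start open in 1 HSC list. In knockout HSC alone these included Tgfbr2 (fold enrichment 13.0), a receptor of TGF-beta, which holds HSC quiescent, Ndn (18.3), a growth-restraining gene of quiescent HSC, Procr (7.91), which encodes the HSC surface marker EPCR, Gata2 (3.92), a master factor of HSC, and Angpt1 (5.74). In wild-type HSC alone they included Bmi1 (8.14) and Msi2 (6.55), both regulators of self-renewal, Kmt2a (5.18), the related methyltransferase MLL1, and Nfkb1 (8.81) and Nfkbie (6.15) of NF-kB signalling. Over all lists there were 30 such genes in knockout, 6.24% of the 481 list genes (95% Wilson interval 4.40 to 8.76%), and 9 in wild type, or 1.87% (0.99 to 3.52%). Over all protein-coding genes the shares were 5.19% and 1.75%, close to those of the lists. Only Tgfbr2 stood above the median of its list by −log10 p, at percentile 52.2, so most were weak peaks near the threshold of detection.

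The share of regions found in 1 HSC list depended on the strength of the region. As deposited, 12589 knockout regions (25.9%) had no overlapping region in wild-type HSC, and 4004 wild-type regions (9.99%) had none in knockout HSC. Each list was cut into 10 equal classes by −log10 p. In the weakest class 81.3% of knockout regions and 43.5% of wild-type regions were absent from the other list. In the fifth class the shares were 18.8% in knockout and 3.57% in wild type. In the strongest class none of 4863 knockout regions and 3 of 4008 wild-type regions (0.07%) were absent. Regions absent from the other list were thus mostly weak or middling peaks.

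**Figure D1:**
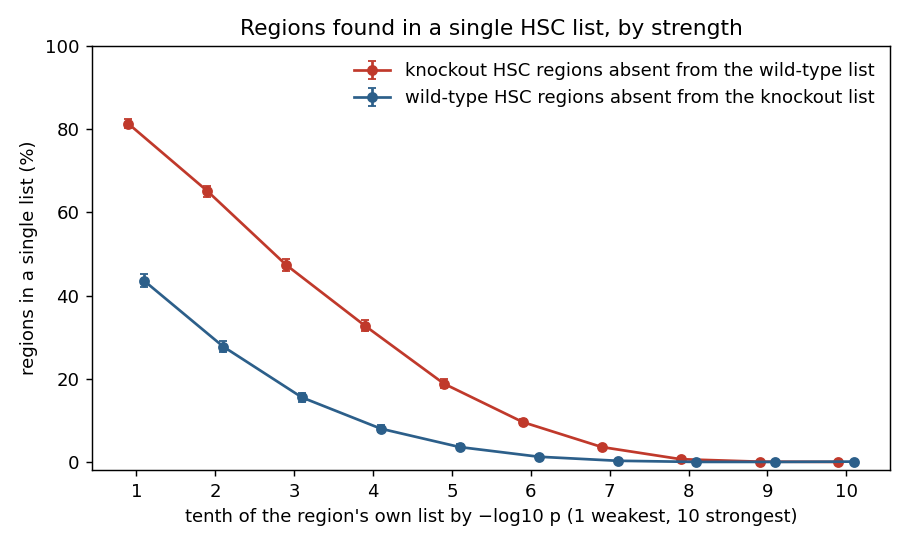
Share of regions with no overlapping region in the other HSC list (y axis, percent, with 95% Wilson intervals) by class of the region's own list, cut into 10 equal classes by −log10 p (x axis, weakest to strongest); red is knockout HSC and blue wild-type HSC. The share is 81.3% in knockout and 43.5% in wild type at the weak end and near 0 in both at the strong end.

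Strong regions absent from the other HSC list were mostly open elsewhere. Above the median of their own list by −log10 p and more than 1 kb from any region of the other there were 646 regions in knockout HSC and 55 in wild-type HSC. The numbers depended on the measure: by fold enrichment they were 1990 and 318, and with the weakest 25% of each list removed 231 and 9. Of the 646, 5-fluorouracil HSC had 615, vehicle HSC 642, knockout HPC 493 and wild-type HPC 522, in the same order as the lengths of these lists. Of the 55, 5-fluorouracil HSC had 54, vehicle HSC 54, knockout HPC 49 and wild-type HPC 53. All 4 of these lists held 450 of the 646 and 48 of the 55. Each of the 646 and of the 55 had a counterpart in at least 1 of the 4 lists. By fold enrichment 5 of the 1990 and 1 of the 318 had none.

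The knockout-only region of highest fold enrichment with a gene within 100 kb lay 7695 bp from Gabrr1, a subunit of a GABA receptor, at chr4:33124471-33124861 (mm10). It had 30.3 in knockout HSC, no region in wild-type HSC, and 21.8 in 5-fluorouracil HSC, 29.0 in vehicle HSC, 25.8 in knockout HPC and 28.4 in wild-type HPC. A region inside Dennd5a, a regulator of Rab proteins in membrane traffic, had 28.8 in knockout HSC, none in wild-type HSC, 16.7 in 5-fluorouracil HSC, 18.1 in vehicle HSC, 34.3 in knockout HPC and 36.3 in wild-type HPC. The region next to Adamts8, a secreted metalloprotease, lacked this breadth. It had 28.4 in knockout HSC, 12.7 in vehicle HSC and 10.3 in knockout HPC, and none in wild-type HSC, 5-fluorouracil HSC or wild-type HPC. Knockout-only regions with no gene within 100 kb could lack it too. Of these, chr9:47332870-47333301 (29.4 in knockout HSC) had none in either HPC list, and chr10:122217557-122217938 (28.6) had none in knockout HPC. Regions at Rnf144b (29.4) and Abo (28.1) were present in all 4 other lists, with fold enrichment between 15.7 and 27.0.

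On the other side, a region inside the body of Slc8a1, the sodium-calcium exchanger, at chr17:81480319-81480865, was absent from knockout HSC. It had 34.8 in wild-type HSC, 31.7 in 5-fluorouracil HSC, 31.0 in vehicle HSC, 35.8 in knockout HPC and 37.9 in wild-type HPC. Knockout HSC also lacked a region inside Stim1, the calcium sensor of the endoplasmic reticulum, at chr7:102337881-102338386, which had 29.6 in wild-type HSC, 25.7 in 5-fluorouracil HSC, 25.5 in vehicle HSC, 28.4 in knockout HPC and 26.7 in wild-type HPC. A region at the start of Tnks1bp1, which encodes a tankyrase-binding protein, at chr2:85047649-85048128, had 21.8 in wild-type HSC, 20.4 in 5-fluorouracil HSC, 17.2 in vehicle HSC, 22.6 in knockout HPC and 21.8 in wild-type HPC, and was again absent from knockout HSC. These 3 were the regions in the strongest class of wild-type HSC that the knockout list lacked. Other wild-type-only regions lay near Sptssb (24.4), a subunit of serine palmitoyltransferase, and Arid3b (24.0), a DNA-binding protein, which had 27.4 and 32.2 in knockout HPC. Of 3036 places at or above percentile 90 in all 5 other lists, knockout HSC lacked these 3, and wild-type HSC lacked none of 3242. Of the lists looked up, knockout HPC lacked 2 of 3262, 5-fluorouracil HSC 1 of 3018, and vehicle HSC and wild-type HPC none of 2980 and 2992. At or above percentile 75, knockout HSC lacked 3 of 7964, knockout HPC 2 of 8479 and 5-fluorouracil HSC 2 of 7862. Wild-type HSC lacked 1 of 8679 there, vehicle HSC 1 of 7801 and wild-type HPC 1 of 7848. Whether such gaps go with the genotype was not tested.

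**Figure D2:**
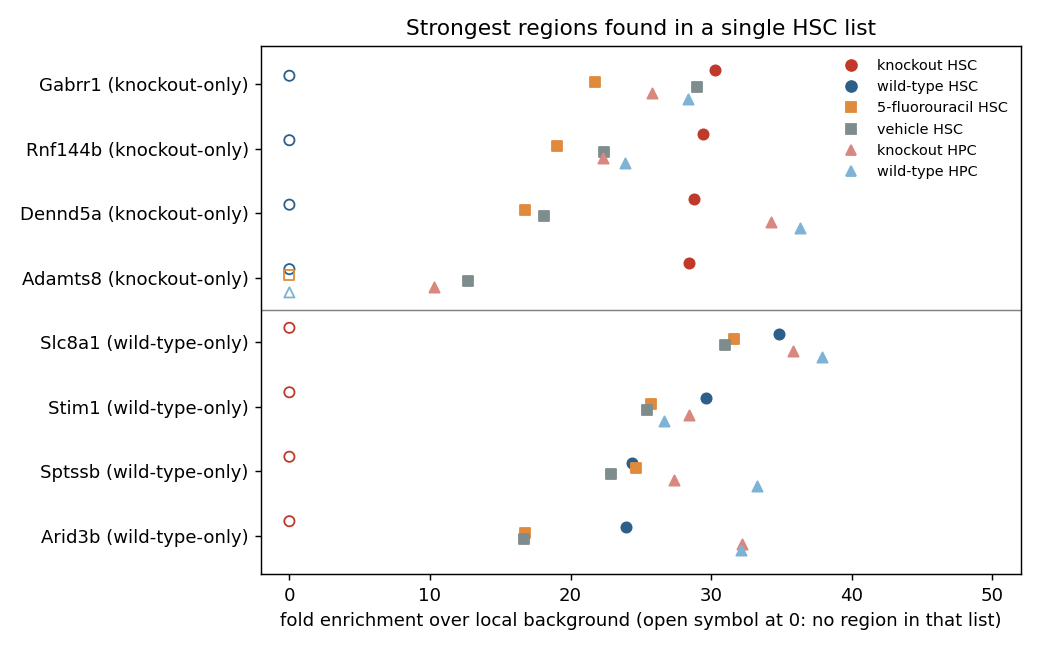
Fold enrichment over local background (x axis) in each of the 6 lists for the 4 regions of highest fold enrichment found in each HSC list alone with a gene within 100 kb, named by that gene; filled symbols are values, and an open symbol at 0 means no region in that list. The knockout-only regions, above the line, reach 30.3 in knockout HSC, and the wild-type-only regions 34.8 in wild-type HSC, and every one but the region at Adamts8 is present in all 4 other lists.

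Among the 40073 strongest regions of each list, 6148 knockout regions (15.3%) and 6042 wild-type regions (15.1%) had no counterpart among those of the other. The near equality follows from holding both lists to 1 number. The 6148 knockout-only regions overlapped no region of the whole wild-type list, whereas 2038 of the 6042 wild-type-only regions (33.7%) overlapped a weaker knockout region below the limit. The knockout-only regions had a median width of 408 bp and a median fold enrichment of 13.5, the wild-type-only regions 352 bp and 9.66, and shared regions in the knockout list 528 bp and 17.9. As deposited, with the weakest knockout regions included, the medians were 380 bp and 10.7 in knockout-only regions and 337 bp and 9.66 in wild-type-only regions. At equal number 12.8% (12.0 to 13.7%) of knockout-only and 17.2% (16.3 to 18.2%) of wild-type-only regions lay at a gene start, and as deposited 13.6% (13.0 to 14.2%) and 15.8% (14.7 to 16.9%), while shared regions at equal number did so in 30.9%. Inside a gene body lay 47.5% of knockout-only and 44.2% of wild-type-only regions. Single-list regions of both genotypes thus lay at a start less often than shared ones.

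The progenitor lists of both genotypes, which took no part in defining the classes, were searched for these regions. The wild-type HPC list is the longer one, with 65832 regions against 52840. Differences between the 2 HPC lists cannot be told apart from this difference in length. Knockout HPC had 62.6% (61.4 to 63.8%) of the knockout-only regions and 53.4% (52.1 to 54.6%) of the wild-type-only regions. Wild-type HPC had 75.1% (74.0 to 76.2%) and 74.1% (73.0 to 75.2%), intervals that overlap. As deposited the order in knockout HPC turned, with 50.8% (49.96 to 51.7%) of the 12589 knockout-only and 51.7% (50.1 to 53.2%) of the 4004 wild-type-only regions, and wild-type HPC had 66.2% (65.4 to 67.0%) and 72.2% (70.7 to 73.5%). Among regions present in exactly 1 of the HPC lists, that list was the knockout one for 20.2% (18.1 to 22.5%) of 1286 knockout-only regions, for 14.1% (12.6 to 15.8%) of 1742 wild-type-only regions and for 15.0% of shared regions. A region present in every wild-type list yet missing from knockout HPC made up 22.7% of the wild-type-only regions, while 15.4% of the knockout-only regions were in all other wild-type lists and missing from knockout HPC. Among shared regions at equal number this share was 5.71% in the knockout list and 5.76% in the wild-type list. As deposited it was 21.8% of wild-type-only and 17.1% of knockout-only regions.

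Within ranges of equal percentile among the 40073 strongest regions, the intervals at knockout HPC were apart only below percentile 30. Equal percentile is not equal strength here. The limit removed the weakest knockout regions and no wild-type regions, and median fold enrichment was 13.5 in knockout-only and 9.66 in wild-type-only regions. Below percentile 10 knockout HPC had 54.7% of knockout-only and 45.4% of wild-type-only regions, between percentiles 10 and 20 61.5% and 53.9%, between 20 and 30 67.1% and 60.2%, and between 30 and 50 71.4% (68.7 to 74.0%) and 68.3% (64.7 to 71.7%), intervals that overlap. Above the median it had 79.0% (73.5 to 83.7%) of 243 knockout-only and 88.2% (79.0 to 93.6%) of 76 wild-type-only regions, which overlap too. Over the 4004 wild-type-only regions absent from the whole knockout list, knockout HPC had 41.4%, 52.4%, 60.5%, 71.7% and 89.1% in the same ranges, the last 2 above the values of the knockout-only regions. For wild-type HPC the order changed earlier: it had 70.8% of knockout-only and 66.1% of wild-type-only regions below percentile 10, and 77.7% and 81.9% between percentiles 20 and 30. Whether the genotype or anything else that the knockout mice share accounts for the overlap cannot be told apart.

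**Figure D3:**
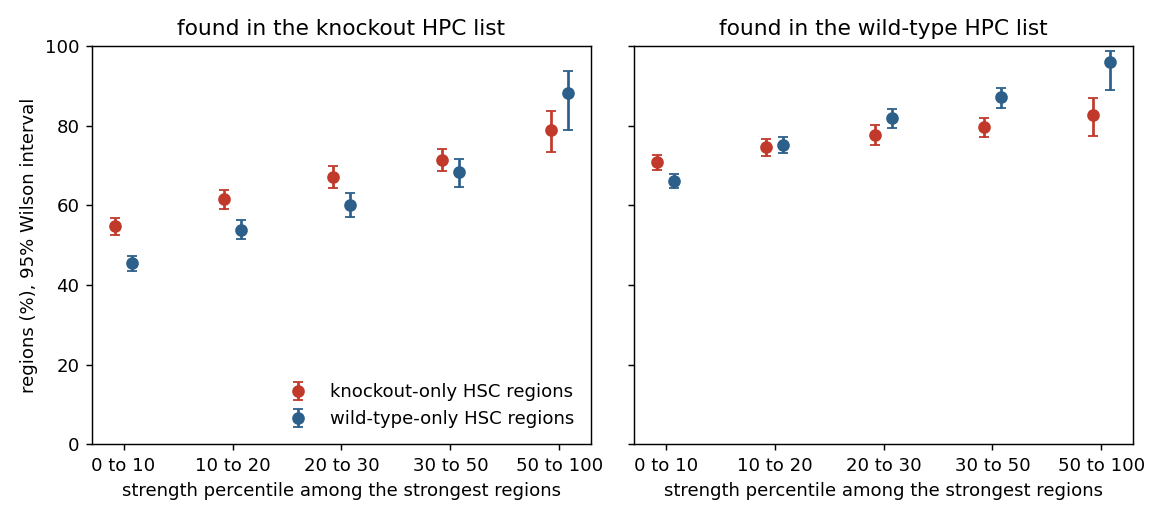
Share of single-list HSC regions (y axis, percent, with 95% Wilson intervals) found in the knockout HPC list (left) and in the wild-type HPC list (right), by strength percentile of the region among the 40073 strongest of its list (x axis); red is knockout-only and blue wild-type-only. In knockout HPC the red points lie above the blue ones up to percentile 50, from 54.7% against 45.4% at the weak end, and below them above it, at 79.0% against 88.2%; the intervals overlap above percentile 30.

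Regions present in both lists were compared by rank. There were 35346 regions paired 1 to 1, and their percentiles by −log10 p followed each other closely, with a Spearman correlation of 0.91 across pairs; by fold enrichment it was 0.89. Pairs share the same pooled libraries, so these are descriptions. The difference in percentile, knockout minus wild type, had quartiles of -6.42 and 6.31 points. It was over 10 points higher in knockout for 6093 pairs (17.2%) and over 10 points lower for 6068 (17.2%). Where the mean percentile was above 75, 2.39% were over 10 points higher and 2.01% lower. At gene starts 1314 of 10525 pairs (12.5%) were over 10 points higher and 1611 (15.3%) lower; by fold enrichment these shares were 11.6% and 20.5%, with a median difference of -1.62 points. Inside gene bodies the balance was the other way, with 19.6% higher and 17.0% lower.

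**Figure D4:**
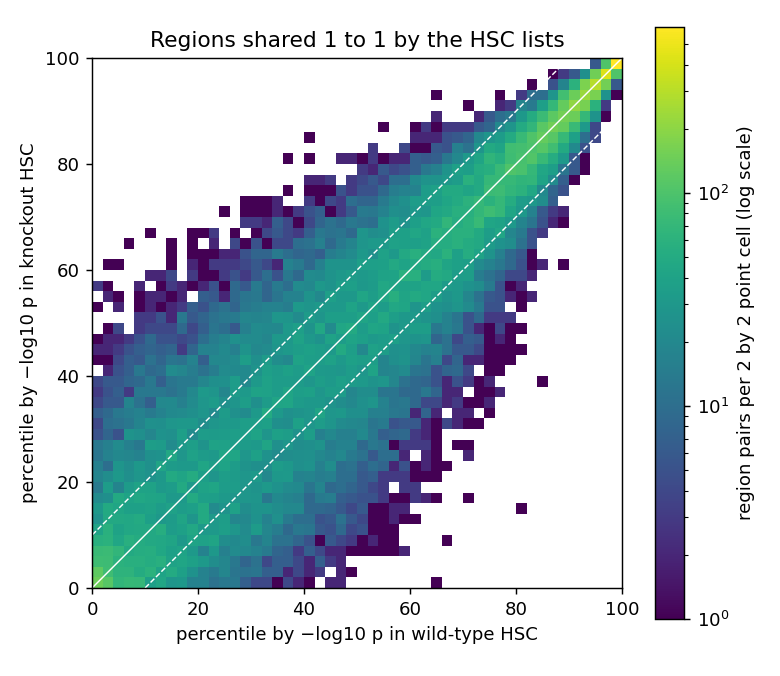
Percentile by −log10 p in knockout HSC (y axis) against that in wild-type HSC (x axis) for the 35346 shared pairs; colour gives the number of pairs per cell on a log scale, the solid line marks equal rank and the dashed lines 10 points to either side. The pairs gather along the line at the strong end and spread widest at low and middle ranks, and 17.2% of pairs lie beyond the dashed line on each side.

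Among pairs above the median of either ranking, the greatest differences towards knockout lay mostly inside genes. A region in Zfp566, a zinc finger gene, stood at percentile 65.0 in knockout and 6.25 in wild type, with fold enrichment of 11.1 and 5.13. One in Sec14l1, of a lipid-binding family, stood at 60.1 in knockout and 3.37 in wild type, with fold enrichment of 23.2 and 9.78. For Ltbp4, which binds latent TGF-beta, the percentiles were 67.1 in knockout and 10.4 in wild type, and for the signalling adaptor Shc3 57.6 and 1.83. By fold enrichment the rank differences were smaller at Zfp566 (15.5 points, against 58.8) and Ltbp4 (17.6, against 56.7). At Sec14l1 and Shc3 they were 61.6 and 64.7 points. Of these, Sec14l1 had fold enrichment of 20.9 in 5-fluorouracil HSC and 16.05 in vehicle HSC, and Shc3 16.2 and 21.05. Regions at H6pd and Hhipl1 completed the set.

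Towards wild type, a second region of Slc8a1 stood at percentile 15.8 in knockout and 80.6 in wild type, with fold enrichment of 15.9 in knockout and 30 in wild type. In the other HSC it was 26.3 with 5-fluorouracil and 31.1 with vehicle, and in HPC 18.9 in knockout and 17.9 in wild type. Of 19 knockout regions given to Slc8a1 3 were single-list regions, and of 18 wild-type regions 2; 12 of its 16 pairs ranked lower in knockout and 4 higher. Filip1l (percentile 8.24 in knockout and 66.5 in wild type), Cemip2, a hyaluronan-degrading enzyme (17.0 and 70.2), Srp9, of the signal recognition particle (6.53 and 59.7), and the homeobox gene Hoxd3 (6.41 and 56.0) had fold enrichment of 10.2 to 14.3 in knockout and 17.5 to 26.1 in wild type. The region in Ehmt1, a histone H3 lysine 9 methyltransferase, had the greatest rank difference by −log10 p, -65.6 points, with −log10 p values of 6.01 in knockout and 85.9 in wild type, but by fold enrichment, with 30.4 in knockout and 23.2 in wild type, its rank was 10.9 points higher in knockout. It was the only one of 13562 knockout regions with a fold enrichment of at least 20 and a −log10 p under 10, so the measures of this region disagree.

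Named pathways were then read from the pairs near their genes. Over all protein-coding genes the median rank difference was -0.05 points (33504 pairs), and in 20 gene lists it lay between -3.07 points (9 pairs of mast cell, basophil and eosinophil markers) and 1.60 points (13 pairs of B cell markers). When pairs were ranked by fold enrichment, 8 of 20 medians had the other sign. Of 7518 genes with at least 2 pairs, 581 (7.73%) had a median over 10 points higher and 588 (7.82%) over 10 points lower. Among all 15117 genes with a region, 3042 (20.1%) had more knockout-only than wild-type-only regions at equal number and 3073 (20.3%) more wild-type-only regions. These are the backgrounds for counts of genes in the lists that follow. For counts of regions, 5751 of 37926 knockout regions near genes (15.2%) were knockout-only. In wild type 5664 of 37947 (14.9%) were wild-type-only. Percentages beside list counts are shares of the list's regions in the same genotype.

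**Figure D5:**
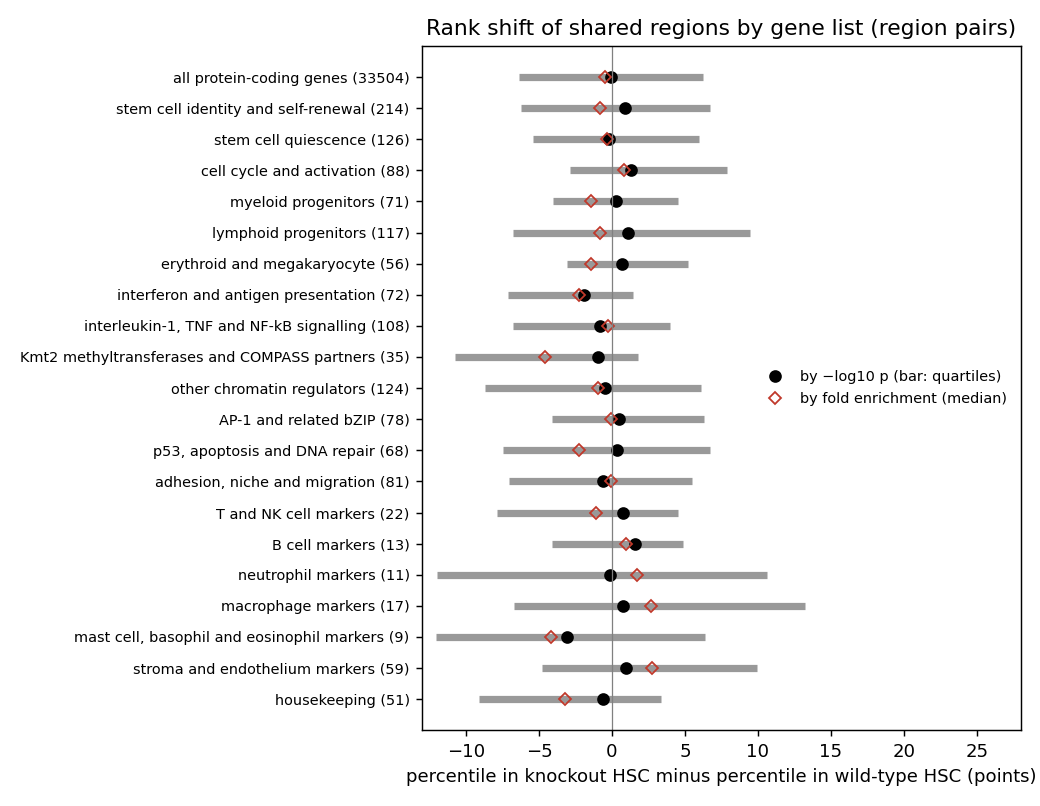
Percentile in knockout HSC minus percentile in wild-type HSC (x axis, points) of shared pairs by gene list, with the number of pairs in brackets; black points are medians by −log10 p, grey bars their quartiles, and red diamonds medians by fold enrichment. All medians by −log10 p lie between -3.07 and 1.60, and every bar crosses 0.

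The 214 pairs of genes that define stem cells had a median of 0.88 points, with 33 over 10 points higher and 36 over 10 points lower. At equal number there were 42 knockout-only (17.2%) and 42 wild-type-only regions (17.1%). Of these genes 10 held more of the first kind and 11 more of the second. Ranked by fold enrichment, the net number of 0 became -40, so the balance of this list depends on the measure. All 4 pairs at Procr ranked lower in knockout, by -3.26 to -21.8 points (median -14.3, and -8.50 by fold enrichment), although its start had a region in knockout alone. Cd34, a surface protein of progenitors that adult mouse HSC lack or carry at low level, had 4 knockout-only and no wild-type-only regions. Their fold enrichment was 13.4, 7.81, 13.1 and 13.5 in knockout HSC, and in vehicle HSC the same places had 15.1, 5.94, 16.7 and 14.7. The pairs of Hoxa9, a homeobox gene of self-renewal, had a median of -12.1 points (2 pairs) but -0.54 by fold enrichment, and those of the HSC marker Thy1 9.81 and 6.97 points (4 pairs). Erg, an ETS factor that HSC need, had 1 knockout-only and 4 wild-type-only regions at equal number, but 2 of each as deposited; Etv6 had 2 knockout-only regions and none in wild type alone.

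Quiescence genes had a median of -0.22 points over 126 pairs and held 28 regions in knockout alone (18.7%) and 18 in wild type alone (12.9%). Cell cycle genes had 1.28 points over 88 pairs and 13 (12.9%) and 8 (8.25%) such regions. Ranked by fold enrichment the net numbers, knockout-only minus wild-type-only, were -15 and -9, of the other sign. Both pairs of Cdkn1c, the cell cycle inhibitor p57 of quiescent HSC, ranked lower in knockout, by -18.8 and -17.3 points, with fold enrichment at the start of 11.2 in knockout and 12.8 in wild type. Tsc1, which restrains mTOR, had a median of 17.6 points (2 pairs), and 22.2 by fold enrichment. Tgfbr2 had 6 knockout-only and 2 wild-type-only regions as deposited; the region at its start had 13.0 in knockout HSC, none in wild-type HSC, 15.6 in 5-fluorouracil HSC, 13.7 in vehicle HSC, 8.10 in knockout HPC and 9.73 in wild-type HPC. Cdk6, which speeds the exit of HSC from quiescence, had a median of -12.6 points over 6 pairs, 2 of them higher in knockout and 4 lower, and -7.54 by fold enrichment. Mcm5, of the replicative helicase, had 11.6 points (3 pairs), and the cyclin gene Ccnd2 10.97 points (5 pairs), or 4.60 and 5.84 by fold enrichment.

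The Kmt2 family and its COMPASS partners had a median of -0.93 points over 35 pairs, or -4.61 by fold enrichment, with 4 pairs over 10 points higher and 10 over 10 points lower. The median pair stood at percentile 67.5 in knockout and 76.9 in wild type. Among them were Wdr82, a subunit of the SETD1 complexes (median -12.2 points, 2 pairs), and Men1, the menin partner of MLL1 (-10.8 points, 3 pairs, and -4.54 by fold enrichment). At Kmt2c itself the start had fold enrichment of 6.98 in knockout HSC and 8.04 in wild-type HSC, a difference of -16.1 points, and 8.10 in 5-fluorouracil HSC, 7.42 in vehicle HSC, 10.8 in knockout HPC and 8.55 in wild-type HPC. As deposited, 3 knockout regions and 1 wild-type region were given to Kmt2c, with 2 in knockout alone and 0 in wild type alone. The labels do not say which exons were deleted, so these values do not check the deletion. Other chromatin regulators had a median of -0.47 points (124 pairs), with the corepressor Ncor1 at -18.2 points (2 pairs) and the DNA demethylase Tet1 at -16.6 (6 pairs, 4 lower and 2 higher in knockout, and -5.73 by fold enrichment). The remodelling subunit Arid1b had 3 knockout-only and 9 wild-type-only regions at equal number, but 9 and 7 as deposited.

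Interferon and antigen presentation genes had a median of -1.92 points over 72 pairs, with 7 pairs over 10 points higher and 14 over 10 points lower. Yet they had 16 knockout-only (17.6%) against 4 wild-type-only regions (5.06%). Of these genes 12 held more of the first kind and 2 more of the second. With the weakest 25% of each list removed the surplus of 12 regions became 1, and ranked by fold enrichment it became -1. Interleukin-1, TNF and NF-kB genes had 12 knockout-only (10.4%) and 15 wild-type-only regions (12.6%) and a median of -0.80 points (108 pairs). Among them were Il1b at 12.3 points (5 pairs, and 7.47 by fold enrichment) and Tnfaip3, a brake on NF-kB, at -8.31 (7 pairs). AP-1 and related genes had 10 knockout-only (11.6%) and 14 wild-type-only regions (15.9%) and a median of 0.48 points (78 pairs). Fos had none in knockout alone and 3 in wild type alone. In p53, apoptosis and DNA repair the counts were 18 (21.4%) and 12 (15.8%), led by Bcl2, which blocks apoptosis, with 5 in knockout alone and 2 in wild type alone. The surplus of 6 regions in this list became 0 with the weakest 25% removed and -4 ranked by fold enrichment. Among adhesion genes the integrin gene Itgb2 had a median of 15.8 points (3 pairs) and Cd93 -13.2 (3 pairs), or 9.96 and -23.1 by fold enrichment, and Cd44 had 3 wild-type-only regions and none in knockout alone.

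Myeloid progenitor genes had 8 knockout-only (10.5%) and 9 wild-type-only regions (11.7%). Their median was 0.31 points (71 pairs), with Klf4 at -14.3 points (4 pairs, and -5.28 by fold enrichment). Lymphoid progenitor genes had 23 (17.8%) and 26 (19.7%) and a median of 1.13 points (117 pairs). Among them were the E protein gene Tcf4 at -12.4 points (9 pairs, 3 higher and 6 lower) and its antagonist Id3 at 12.6 points (3 pairs, and 2.04 by fold enrichment). Erythroid and megakaryocyte genes had 11 of each kind (17.5% in both genotypes) and a median of 0.72 points (56 pairs). Housekeeping genes, which serve as a yardstick, had 6 knockout-only (9.84%) and 2 wild-type-only regions (3.57%) and a median of -0.63 points (51 pairs). Stroma and endothelium markers had 9 knockout-only (13.6%) and 14 wild-type-only regions (19.7%) at equal number. Of these genes 4 held more of the first kind and 8 more of the second. With the weakest 25% removed the net number of -5 became 5. Runx2 had 0 and 3 at equal number and Col1a2 0 and 2. Against the balance of this list, the endothelial cadherin gene Cdh5 had 6 knockout-only regions and none in wild type alone as deposited. The 4 strongest of these had fold enrichment of 24.7, 19.5, 19.2 and 17.9 in knockout HSC and of 20.9, 15.5, 15.1 and 13.6 in vehicle HSC, so wild-type HSC of the other age group carried them too.

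Counts per gene were led by long genes. At equal number Nfatc2, a calcium-regulated transcription factor, had 6 knockout-only and no wild-type-only regions, as did Tbc1d16, a Rab GTPase-activating protein. Prkce, protein kinase C epsilon, had 7 and 1, and Babam2, Pfkfb3 and Jazf1 had 5 and 0 each. Shared regions at Nfatc2 were split, with 7 of 10 pairs higher in knockout and 3 lower. In the other direction the phosphodiesterase gene Pde4d had no knockout-only and 8 wild-type-only regions, the dynamin gene Dnm3 0 and 6, the nuclear factor I gene Nfia 0 and 5, H13 0 and 5, and Atxn1 1 and 6. As deposited Pde4d had 3 knockout-only and 6 wild-type-only regions, and Nfia 6 and 4, so the lead of Nfia turned with the length of the list. With the weakest 25% removed, the net number, knockout-only minus wild-type-only, was 0 at Nfatc2, Jazf1, Dnm3 and Nfia and -1 at Pfkfb3, against -5 at Pde4d. Assigned to the nearest gene end, the regions gave net numbers of -1 at Pde4d (against -8) and 1 at Prkce (against 6). Of 12 such genes 5 moved, which for net numbers means a change of sign or by more than a fixed factor.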

How the data were processed

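ATAC-seq samples were grouped by the labels' genotype, cell type, age and treatment. Per the submitters' processing notes, Bowtie2, MACS2 and the mouse build mm10 (GRCm38) were used; neither versions nor filters are stated in the labels. The labels name total RNA as the molecule, which is at odds with the assay. All samples of a group name 1 deposited list, taken as pooling them. Per column 7 to 9 of the deposited lists, the authors' peak caller gave a ratio (fold enrichment over local background), a −log10 p and a −log10 q; the q and the deposited score were not used. Read depth is unknown, and −log10 p grows with it, so values were ranked only within a list.

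Overlapping rows were merged into regions, each with its highest values. Regions sharing at least 1 bp were called shared. Equal number means the 40073 strongest by −log10 p. Pairs overlap 1 to 1, and percentiles were taken among pairs. Regions went to the gene body they overlap, or the nearest within 100 kb. Gene starts came from RefSeq promoters (GRCm38.p6) for 17491 genes, and both gene ends stood in for 4392. A region within 1 kb was at the start. Single-list gene starts named here overlap no region of the other list, an option added after the data were seen. Motifs were searched in promoter windows because no genome was used here. With 1 list per group there is no test; Wilson intervals cover counting error over regions. Python 3.11.15, pandas 2.3.3, NumPy 2.4.6, SciPy 1.17.1 and matplotlib 3.10.9 were used, and the region and rank steps were tested on simulated data. Named genes followed a rule: the 6 leading regions, genes by net number, starts and pairs per direction, and up to 3 genes per list and measure. The comparison, the 20 gene lists (483 symbols, 2 unmatched) and the rule were chosen with earlier results of these data known. Chromosome Y was left out of named genes, and some genes that the rule takes are not reported here. Alternatives were 50% overlap, 200 bp summit windows, a 1 kb gap, ranking by fold enrichment, 20000 regions, the weakest 25% removed, and other gene rules.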

Additional observations from a re-analysis of the deposited data

How the results depend on the processing

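No paired analysis was possible because each group has 1 list for all its samples and no result comes from a test; for the same reason no sample could be left out. Requiring 50% overlap of the shorter region changed little in the 15 values of the comparison that it touches. Shares and the rank correlation stayed within their intervals. Single-list gene starts, counts without an interval, went from 1160 to 1134 in knockout and from 403 to 382 in wild type. Values below give knockout first and wild type second. The single-list shares as deposited became 27.97% and 12.6% with 200 bp summit windows, 22.3% and 5.77% without the weakest 25% of each list, and 23.5% and 8.66% with a 1 kb gap. At equal number they became 17.4% and 17.4%, 12.5% and 12.4%, and 14.1% and 13.5% under those settings, 19.7% and 19.3% ranked by fold enrichment, and 11.9% and 11.9% among the 20000 strongest. With 10 strength classes by fold enrichment the weakest had 54.6% and 27.7% in a single list, and regions above the median 8.24% and 1.62%. The strong regions with no counterpart within 1 kb numbered 1990 and 318 by fold enrichment and 231 and 9 without the weakest 25%. Rank correlation was 0.892 by fold enrichment and 0.899 without the weakest 25%, and pairs over 10 points higher and lower in knockout were 18.2% and 19.5%, and 18.1% and 18.3%. Wild-type-only gene starts numbered 256 without the weakest 25%, and the shares of single-list regions at a start were 16.2% and 20.2%.

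For the lookup in progenitors, knockout HPC had 60.1% of knockout-only and 55.4% of wild-type-only regions without the weakest 25%, and 60.2% and 49.1% with summit windows; wild-type HPC had 73.9% and 79.1%, and 70.4% and 65.7%. Of those in exactly 1 HPC list, 12.2% and 5.08%, and 27.1% and 21.0%, were in the knockout one. Under these 2 settings the knockout-only share was the higher one in knockout HPC, but as deposited it was 50.8% against 51.7%; in wild-type HPC the order changed without the weakest 25%. Of 12 net numbers per named gene, 12 moved without the weakest 25%, where Pfkfb3 changed sign, 2 by fold enrichment and 5 by nearest gene end. Net numbers of the gene lists changed sign in 8 of 20 lists there and in 7 of 20 by fold enrichment. The causes were not tested. Unknown depth limits all absences to "not called in that list".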

Other observations

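Knockout HSC had 319 regions found in no wild-type list, or 2.53% of the 12589 knockout-only regions as deposited. Of these, 27 were also in knockout HPC and 292 in none of the other lists. The highest fold enrichment among the 319 was 18.2, at the start of Riiad1, followed by regions near Cacna1i, a calcium channel gene (15.5), the GDP-fucose transporter gene Slc35c1 (15.1) and the cation channel gene Trpc4 (15.1), all found in knockout HSC alone. In the opposite pattern, 871 wild-type HSC regions, or 21.8% of the 4004 wild-type-only regions, were in every wild-type list and in neither knockout list. They included a region inside Ak7, an adenylate kinase gene, with 20.9 in wild-type HSC, 19.95 in 5-fluorouracil HSC, 20.8 in vehicle HSC and 19.1 in wild-type HPC. A region inside the homeobox gene Zfhx3 had 18.4, 12.9, 16.0 and 17.5 in the same lists, and one near Pirt 19.8, 12.4, 15.9 and 11.1. Another set, of 1767 wild-type HSC regions (44.1% of the 4004), was in all other lists, knockout HPC included, and missing from knockout HSC alone. Slc8a1, Stim1 and Sptssb led it. Most members of these sets were weak. The median percentile by −log10 p in the own list was 5.32 for the 319, 11.9 for the 871 and 15.9 for the 1767. The sizes of these sets depend on the lengths of the lists, which differ, and cannot be compared with each other.

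By fold enrichment, pairs far from any gene leaned towards knockout, with 26.4% over 10 points higher and 18.5% over 10 points lower (1842 pairs), whereas by −log10 p the shares were 19.8% and 18.7%. Wide regions leaned the other way: in the widest 25% of knockout regions 12.0% of pairs were over 10 points higher by fold enrichment and 23.7% lower. By −log10 p these shares were 12.7% and 15.8%. On chromosome X 14.2% of 626 pairs were over 10 points higher by −log10 p and 22.0% lower. By fold enrichment they were 18.8% and 21.7%, against 18.6% and 19.4% over all pairs.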
